A study of Rattus norvegicus with 24 samples.

Results

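The genes described here are 9 secreted proteins of rat that belong to the acute-phase response or block proteases in the extracellular space. They are the protease inhibitor genes A2m, Serpina3n, Timp1, Timp2, Timp3 and Cst3 and the plasma-type carrier genes Lcn2, Cp and Hp. Members were the probes whose platform gene symbol was one of these names, which gave 9 probes, 1 for each gene, among 22523 probes and 13337 named genes. RNA came from the cortex of male Wistar rats of 250 to 300 g, measured on 24 Illumina RatRef-12 beadchip arrays in 6 groups of 4. Sham animals were operated on without occlusion of the artery. Vehicle animals had the middle cerebral artery closed permanently, a stroke model, and received 80% DMSO into the ventricle. Treatment animals had that injury and received 30 mM ZM447439, an Aurora kinase inhibitor, in 80% DMSO. Each condition was collected at 8 h and at 24 h. The labels name the right cortex while the protocol occludes the left artery, and nothing in them states whether arrays come from different animals.

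Acute-phase proteins are plasma proteins whose output changes within hours to days of injury, driven mainly by interleukin-6 and interleukin-1 through STAT3, C/EBP and NF-kB factors. The liver is their main source, but astrocytes, microglia, vessel cells and choroid plexus make several of them after brain injury. Many are inhibitors that hold secreted proteases in check: serpins act on serine proteases, TIMPs on matrix metalloproteinases, cystatins on cathepsins, and alpha-2-macroglobulin traps proteases of several classes.

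The deposited values decided what could be compared. Within a time point, the 12 columns of values were the same probe profile multiplied by 1 factor per array, sham, vehicle and treatment columns alike. After that factor was removed, no column departed from the common profile at any of the 9 probes by more than 2.09e-07 log2 at 8 h or 1.72e-07 at 24 h. The 9 genes were therefore not compared between sham, vehicle and treatment, and columns of a time point were counted as 1 profile. Levels are given as multiples of the median probe of the array, and a difference is log2 of the 24 h level over the 8 h level. With 1 profile per time point a difference has no replicate error and no test, and it does not separate occlusion, inhibitor and sham operation. Probes differ in how strongly they bind, so a level is not ranked against that of another probe, and summed levels are compared between profiles over the same probes. For scale, the 25th and 75th percentiles of all probes lay at 0.812 and 2.91 times the median at 8 h and at 0.816 and 2.80 times at 24 h. A level under 1.5 times the median is called dim below, since it is within the range of most probes: 64.1% of all probes had a mean level under that mark.

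The tissue label was checked against markers. The neuron markers Snap25, a synaptic membrane protein, and Slc17a7, the vesicular glutamate transporter of cortical excitatory neurons, stood at 140 and 10.6 times the median at 8 h. Of 10 neuron markers 9 were at or above 1.5 times the median in both profiles, and Rbfox3 (1.24 and 1.16) was dim. Of 9 measured hepatocyte markers, 7 were dim in both profiles. The exceptions were Ttr, which choroid plexus also makes, and Alb.

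Of the 9 genes, 4 were at least 1.5-fold higher in the 24 h profile, namely Lcn2, A2m, Timp1 and Serpina3n, while 0.617% of all probes were. None of the 9 was at least 1.5-fold lower, where 0.497% of all probes were. Cp was higher by less than that size, and Timp2 and Cst3 were slightly lower. The probes of Timp3 (difference 0.01) and Hp (-0.37) were dim in both profiles, so no direction is read from them. The median difference over the 9 was 0.46, beside -0.01 over all probes. Lcn2 and A2m also passed 2-fold, a size reached upward by 0.142% of probes, and none of the 9 was 2-fold lower, as 0.0710% of probes were. The genes were chosen with earlier results of these data known, so these shares are a description.

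**Figure D1:**
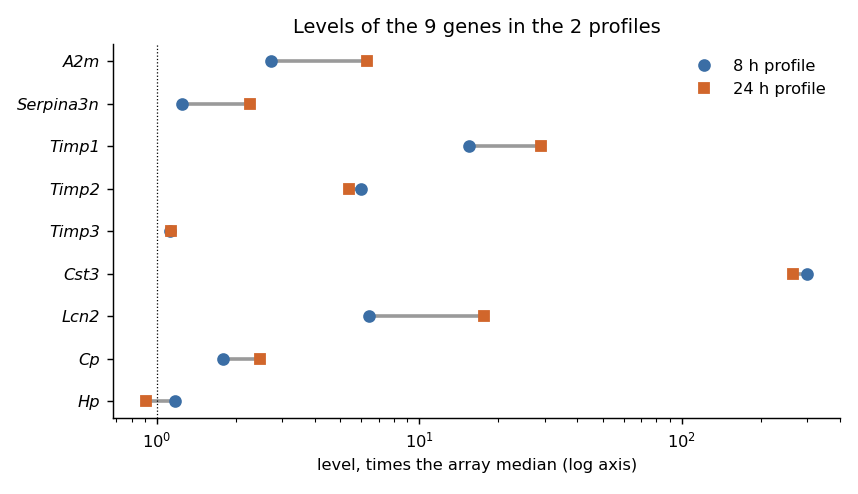
Level of each of the 9 genes as a multiple of the array median (log axis) in the 8 h profile (circles) and the 24 h profile (squares), 1 value each, with the median at the dotted line. The 4 longest rightward shifts are those of A2m, Serpina3n, Timp1 and Lcn2. Positions of different genes are not comparable, because each gene has its own probe.

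**Figure D2:**
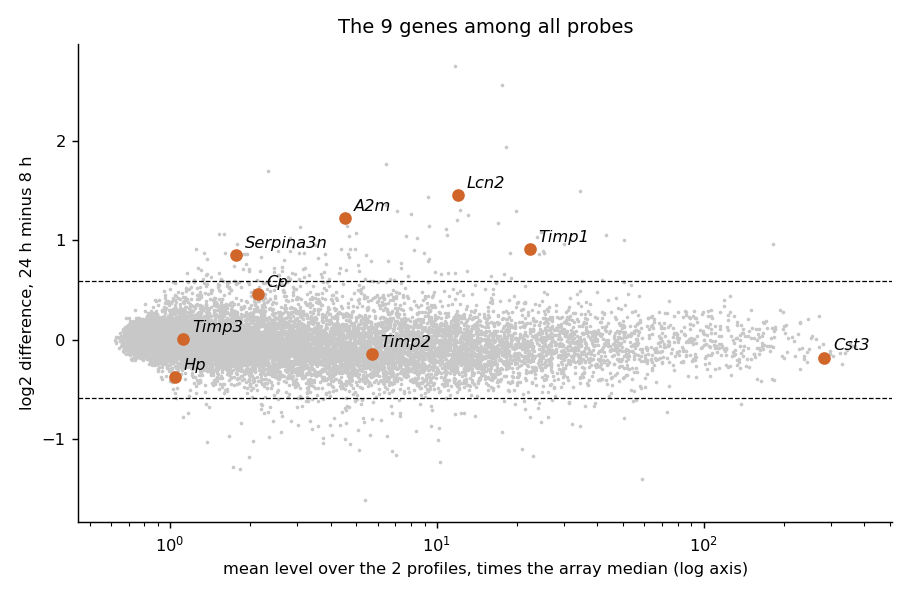
Log2 difference of the 24 h and 8 h profiles against the mean level (log axis) for all 22523 probes in grey and the 9 genes in orange, with dashed lines at 1.5-fold. Lcn2, A2m, Timp1 and Serpina3n lie above the upper line, and the other 5 genes lie between the lines.

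Among the protease inhibitors, A2m encodes alpha-2-macroglobulin, which encloses proteases of several classes after they cut its bait region and is a major acute-phase protein of rat liver. Its deposited intensities ran from 177 to 244 (median 216) over the 12 arrays at 8 h and from 486 to 727 (median 556) over those at 24 h. The ranges do not overlap, although every array of a time point carries the same profile and the spread within a time is only the array factor. Such a gap upward at 24 h was found for 4.52% of all probes and for 5 of the 9 genes, and a gap downward for 0.186% of probes and none of the 9. A gap follows from the difference between profiles and the array factors alone, so here and below it adds no support to a difference. Array medians ran from 65.3 to 90.1 at 8 h and from 76.8 to 115 at 24 h. With these brighter 24 h arrays, a gap upward needs a smaller difference than a gap downward. As a multiple of the median, A2m stood at 2.71 at 8 h and 6.32 at 24 h, a difference of 1.22 or 2.33-fold. Only 14 probes had a larger difference.

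Serpina3n encodes a serine protease inhibitor related to antichymotrypsin, which in mouse is a marker of reactive astrocytes. It was dim at 8 h, with a level of 1.25, and reached 2.26 at 24 h, a difference of 0.85. Intensities ran from 81.9 to 113 at 8 h and from 174 to 260 at 24 h, again without overlap. The rat genome holds several closely related Serpina3 genes. The specificity of this probe was not examined, so the gene behind the value is uncertain, and the 1 measured relative, Serpina3c, was dim at 0.717 and 0.780.

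Of the 3 tissue inhibitors of metalloproteinases, Timp1 was past 1.5-fold, while Timp2 was only slightly lower. Timp1, the inducible soluble member, had a level of 15.5 in the 8 h profile and 29.1 in the 24 h profile, a difference of 0.91 or 1.88-fold. Its intensities lay between 1014 and 1399 (median 1236) at 8 h and between 2239 and 3350 (median 2563) at 24 h, so no array of the later time fell within the earlier range. Timp2, which both inhibits metalloproteinases and helps Mmp14 to activate pro-Mmp2, stood at 5.99 and 5.41, a difference of -0.15. Its intensities overlapped, from 391 to 540 and from 416 to 622. Timp3, the member that binds the extracellular matrix and also inhibits Adam17, was dim in both profiles at 1.12 and 1.13, a difference of 0.01. A dim probe can miss a change, so nothing is read from the equal values of Timp3. The difference of Timp1 exceeded that of Timp2 by 1.05 log2, and a comparison of this kind within the table does not depend on a factor common to all probes.

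Cst3 encodes cystatin C, an inhibitor of cysteine cathepsins that astrocytes, choroid plexus and other brain cells secrete. It was bright, at 301 and 266 times the median, a difference of -0.18. The intensities overlapped widely, from 19668 to 27126 at 8 h and from 20422 to 30553 at 24 h. Lcn2 and Cst3 differed from each other by 1.63 log2 in their change between profiles, and A2m and Cst3 by 1.40.

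Among the carriers, Lcn2 encodes lipocalin-2, which binds iron-loaded bacterial siderophores and is made by reactive astrocytes and stored in neutrophil granules. Its intensities ran from 419 to 578 (median 511) at 8 h and from 1350 to 2020 (median 1546) at 24 h. The lowest 24 h array therefore lay above the highest 8 h array. Sham columns carry the same profile as the other columns of their time. Their values therefore do not show how Lcn2 differed in sham animals. Lcn2 had the largest difference of the 9 genes, 1.45 or 2.74-fold, and only 6 probes of the whole table had a larger one. Its level moved from 6.41 to 17.6 times the median.

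Cp encodes ceruloplasmin, the copper-carrying ferroxidase that astrocytes hold on their surface. Its level was 1.79 at 8 h and 2.47 at 24 h, a difference of 0.46 or 1.38-fold. The intensities, from 117 to 161 and from 190 to 284, did not overlap. Hp encodes haptoglobin, which captures free haemoglobin for uptake through the receptor Cd163. Its probe was dim, at 1.17 at 8 h and 0.906 at 24 h, a difference of -0.37. The intensities overlapped, from 76.7 to 106 and from 69.7 to 104. Lcn2 and Cp, both plasma acute-phase proteins, thus showed a large and a small difference in the same pair of profiles. The Hp value was lower, but it comes from a dim probe, so no direction is read from it.

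**Figure D3:**
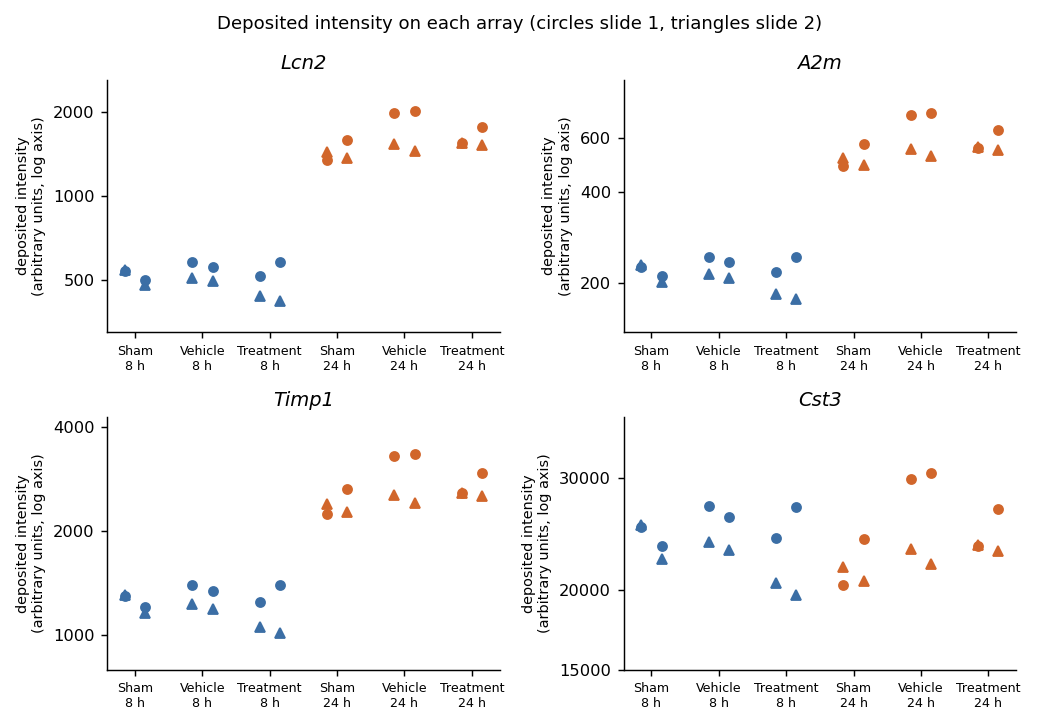
Deposited intensity (arbitrary units, log axis) of Lcn2, A2m, Timp1 and Cst3 on each of the 24 arrays by group, 8 h in blue and 24 h in orange, with circles for slide 1 and triangles for slide 2. For Lcn2, A2m and Timp1 every 24 h array lies above every 8 h array, while Cst3 overlaps. Within a time the pattern of points is the same in all 4 panels, because it is the array factor alone.

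The promoters of Lcn2, Serpina3n and Timp1, all past 1.5-fold, were set beside that of Cst3, which was slightly lower, to show the sequence around their start sites and the letters that acute-phase factors are known to bind. The RefSeq promoter table (GRCr8, from 250 bases before to 50 after the start) was matched by gene identifier and held 7 of the 9 genes. The motifs searched on both strands were TTCNNNGAA and its stricter form TTCCNGGAA for STAT factors, TTGCNNAA for C/EBP factors, TGANTCA for AP-1 and the NF-kB consensus. The strict STAT motif is contained in the loose one. Each sequence reads 5′ to 3′ along the gene, and capitals mark motif matches.
Lcn2, chr3:36081731-36082030, reverse strand: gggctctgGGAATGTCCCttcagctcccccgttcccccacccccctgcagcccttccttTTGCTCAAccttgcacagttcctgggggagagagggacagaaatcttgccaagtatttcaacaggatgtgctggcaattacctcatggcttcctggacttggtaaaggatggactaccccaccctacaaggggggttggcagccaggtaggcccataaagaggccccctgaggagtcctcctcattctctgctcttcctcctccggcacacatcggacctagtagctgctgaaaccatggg
Serpina3n, chr6:129088142-129088441, forward strand: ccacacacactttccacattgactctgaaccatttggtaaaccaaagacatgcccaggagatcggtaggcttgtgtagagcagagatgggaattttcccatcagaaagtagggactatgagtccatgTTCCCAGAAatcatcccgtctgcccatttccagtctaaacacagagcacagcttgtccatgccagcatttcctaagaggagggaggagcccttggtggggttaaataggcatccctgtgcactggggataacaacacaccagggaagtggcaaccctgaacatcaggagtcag
Timp1, chrX:3771073-3771372, reverse strand: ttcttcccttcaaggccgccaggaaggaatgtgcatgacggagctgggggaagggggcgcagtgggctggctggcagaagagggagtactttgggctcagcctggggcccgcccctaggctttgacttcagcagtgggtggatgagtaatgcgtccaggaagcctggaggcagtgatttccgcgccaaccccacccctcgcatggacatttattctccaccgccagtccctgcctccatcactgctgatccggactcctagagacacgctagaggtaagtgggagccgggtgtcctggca
Cst3, chr3:156793888-156794187, reverse strand: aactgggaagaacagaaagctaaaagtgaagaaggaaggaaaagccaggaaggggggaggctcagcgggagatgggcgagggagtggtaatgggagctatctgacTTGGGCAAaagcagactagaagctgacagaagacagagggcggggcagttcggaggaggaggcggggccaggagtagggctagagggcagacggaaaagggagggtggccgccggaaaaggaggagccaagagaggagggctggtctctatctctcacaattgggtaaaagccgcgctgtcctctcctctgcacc

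In Lcn2 the capitals are an NF-kB match, GGAATGTCCC, which reads as the consensus on the opposite strand and begins at base -242, and a C/EBP match, TTGCTCAA, at base -191. Bases are counted from the start site, with -1 just before it. Serpina3n held a loose STAT match, TTCCCAGAA, at base -123. Cst3 also held a C/EBP match, TTGGGCAA, on the opposite strand at base -145, so this motif was present in the promoter of a gene that was not higher. The Cp promoter, not printed, held a C/EBP match on the opposite strand at base -72. The Timp1 window held none of these letters. Over the 33469 promoters of the table, 8.87% held the loose STAT motif, 1.27% the strict one, 10.6% the C/EBP motif, 7.51% the NF-kB consensus and 7.33% the AP-1 motif. Among the 7 promoters, 1 held the loose STAT motif, 3 the C/EBP motif and 1 the NF-kB consensus, and none held the strict STAT or the AP-1 motif. A match is a stretch of letters, and binding was not measured.

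For A2m, Lcn2 and Timp1, past 1.5-fold and not dim in either profile, the 3 genes nearest in their pair of levels were looked up, by Euclidean distance between the log2 levels over the 2 profiles. Nearest to A2m were Tagln, a smooth muscle actin-binding protein (distance 0.084), Serping1 (0.173) and the lactate transporter gene Slc16a3 (0.217). Nearest to Lcn2 were Cyba, a subunit of the phagocyte NADPH oxidase (0.131), Lcp1, a leukocyte actin-bundling protein (0.192), and the neuropeptide gene Tac1 (0.272). Nearest to Timp1 were the Fc receptor chain gene Fcer1g (0.059), Igfbp2 (0.128) and the proteasome activator gene Psme1 (0.175). The distance sets levels of different probes beside each other, so it depends on how strongly each probe binds as well as on the difference, and says only that the 2 values are alike.

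The further protease inhibitors differed little as a list. Of 44 listed genes 35 were measured, 22 were higher and 13 lower at 24 h, and their median was 0.04. Over all probes, 46.9% were higher and 53.1% lower, and many differences counted here and below are near 0. With division by the median, only Serping1, the C1 inhibitor of the complement and contact systems, was at least 1.5-fold higher, at 3.06 and 6.28 times the median (difference 1.04), and none was 1.5-fold lower. Of these 35 genes, 19 were dim in both profiles. Among brighter ones, Itih3, a heavy chain of the inter-alpha-trypsin inhibitors, stood at 44.0 and 60.4 (0.46), and Serpinb1a, an intracellular inhibitor of neutrophil proteases, at 1.93 and 2.83 (0.55). Under the 5 other scaling or background steps Serpinb1a lay between 0.59 and 0.80, past 1.5-fold in each. The leukocyte protease inhibitor gene Slpi and the tissue factor pathway inhibitor gene Tfpi each differed by 0.31. Serpini1, or neuroserpin, the neuronal inhibitor of tissue plasminogen activator, was lower by 0.30 (difference -0.30). Cstb, an intracellular cystatin, stood level at 56.1 and 56.5 times the median, and so did Serpine2 and Serpinf1, each with a difference of -0.05. The list thus holds inhibitors that stay inside cells beside the secreted ones.

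The further plasma proteins of the acute phase were mostly dim. Of 19 listed genes 16 were measured, 9 were higher and 7 lower, with a median of 0.02, and 10 of the 16 were dim in both profiles. Examples chosen after their values were seen are Crp, C-reactive protein, at 1.05 and 0.966, Orm1, an acid glycoprotein, at 0.967 and 0.989, and the fibrinogen chain gene Fgb at 0.749 and 0.828. The 1 member at least 1.5-fold higher, Lbp, which carries bacterial lipopolysaccharide, was dim at 8 h (0.994) and stood at 1.62 at 24 h. Alb, serum albumin, was the 1 member at least 1.5-fold lower, at 4.44 and 2.38 (-0.90), with -0.53 at its second probe. Tf, transferrin, which oligodendrocytes also make, stood at 174 and 214 (0.30). Fn1, or fibronectin, differed by 0.22, Vtn, or vitronectin, by -0.10, and Cd14, the lipopolysaccharide co-receptor, by 0.09.

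Of 23 measured genes of the interleukin-6 family and interleukin-1 pathways, 6 were higher and 17 lower at 24 h, with a median of -0.10. Of these genes 15 were dim in both profiles, and among the 8 at or above 1.5 times the median in both, 2 were higher and 6 lower. None was 1.5-fold higher, and Cebpb, a C/EBP transcription factor gene, was the 1 member 1.5-fold lower, at 17.5 and 10.3 times the median (-0.77). The transcription factor gene Stat3 stood at 3.49 and 3.55 (0.03). Il6 (0.995 and 0.8) and Socs3, the feedback inhibitor of this pathway (0.980 and 0.907), were dim in both profiles. The cytokine gene Il1b was higher by 0.37, at 2.02 and 2.61. The kinase genes Jak2 and Jak1 differed by -0.26 and -0.10, the STAT3 inhibitor gene Pias3 by -0.16 and the cytokine gene Cntf by -0.12.

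Proteases that these inhibitors act on were split. Of 38 measured genes 20 were higher and 18 lower, the median was 0.01, and with division by the median none was 1.5-fold different in either direction. Ctsc, a cathepsin that activates leukocyte proteases, was closest upward at 0.56 (1.44 and 2.11 times the median) and ran from 0.58 to 0.95 over the other steps. The metalloproteinase gene Mmp9 stood at 2.65 and 1.96 times the median (-0.44), and Mmp14, a membrane-bound metalloproteinase, at 2.90 and 3.92 (0.43). Timp1 exceeded Mmp9 in its difference by 1.34 log2, whereas it exceeded Mmp14 by 0.48. Timp2 fell short of Mmp14, its partner in pro-Mmp2 activation, by 0.58 (Timp2 minus Mmp14, -0.58). Among cathepsins, the targets of cystatin C, Ctss of microglia stood at 44.4 and 56.7 (0.35), Ctsh at 3.12 and 4.04 (0.37), Ctsl at 41.7 and 44.2 (0.08) and Ctsk at 5.92 and 4.63 (-0.36). Cst3 minus Ctss was -0.53 log2, with Cst3 itself only slightly lower (-0.18, from -0.17 to -0.08 over the other steps). Plat, tissue plasminogen activator, stood at 10.8 and 7.28 (-0.57, from -0.61 to -0.48 over the other steps), lower together with its inhibitor Serpini1.

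Receptors and iron-handling genes completed the description. Of 18 measured genes 12 were higher and 6 lower, with a median of 0.04 and none past 1.5-fold in either direction. Of the 12 at or above 1.5 times the median in both profiles, 7 were higher and 5 lower. Slc22a17, described as a receptor for lipocalin-2, stood at 49.7 and 39.5 times the median (-0.33), so Lcn2 minus Slc22a17 was 1.79 log2. Cd163, the haptoglobin-haemoglobin receptor of macrophages, was dim at 0.908 and 0.946. The ferritin light chain gene Ftl1 stood at 37.9 and 49.9 (0.40), and the heavy chain gene Fth1 at 367 and 350 (-0.07). Blvra, a biliverdin reductase, differed by 0.22, the ferroxidase gene Heph by 0.19, the haem oxygenase gene Hmox2 by -0.20, the iron importer gene Slc11a2 by -0.30 and Lrpap1, a chaperone of lipoprotein receptors, by -0.05.

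**Figure D4:**
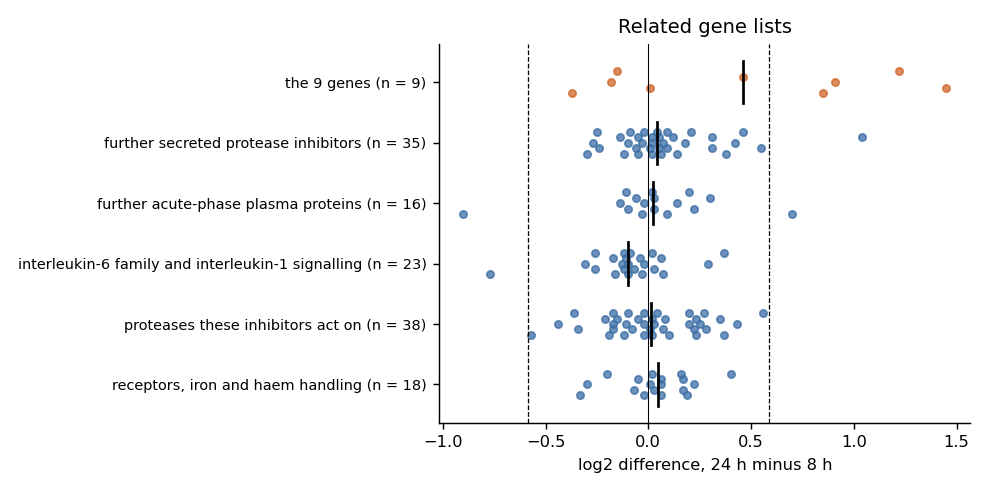
Log2 difference, 24 h minus 8 h, of the 9 genes (orange) and of the measured genes of 5 related lists (blue), 1 point per gene, with each median as a black bar and 1.5-fold at the dashed lines. The median of the 9 genes is 0.46, and those of the lists lie between -0.10 and 0.04.

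Markers of cells that can make these proteins differed between the same profiles. Of 8 measured microglia and macrophage markers, 7 were higher, 4 of them at least 1.5-fold, with a median of 0.59 and a summed level of 39.9 times the median at 8 h and 76.3 at 24 h. Of the 8, 4 were at or above 1.5 times the median in both profiles, all higher, and 2 were dim in both. The member not higher, Cx3cr1, was dim at 1.04 and 1.03. Aif1 (15.7 and 33.3) and Fcer1g (15.9 and 30.2) made up most of the sum. Of 9 astrocyte markers 4 were higher and 5 lower (median -0.02), and the summed level was 555 and 683. The intermediate filament genes Gfap (124 and 241) and Vim (28.2 and 58.2) were the astrocyte members past 1.5-fold. Together Gfap and Vim rose by more than the summed level of the astrocyte list. Choroid plexus markers were higher in 8 of 10 members (median 0.24, summed level 71.9 and 95.1), but 7 of the 10 were dim in both profiles. Without Ttr, at 5.10 and 30.1, the sum was 66.8 and 65.0. Most of that remainder was Enpp2, at 59.8 and 56.0, so it says little about the other members. Past 1.5-fold upward were 2 of the 10, Ttr and Sostdc1, which was dim at 8 h (0.985 and 2.06). Meningeal and fibroblast markers were higher in 9 of 10 (median 0.24, summed level 92.2 and 106), and endothelial and pericyte markers in 6 of 6 (median 0.09, summed level 38.0 and 42.5). Of the latter 4 were dim in both profiles, and without the smooth muscle gene Tagln (2.87 and 6.34) the sum was 35.2 and 36.1. In the meningeal and fibroblast list, Igfbp2 alone (15.6 and 31.8) rose by more than the summed level did. Igf2, the 1 lower member of that list, stood at 42.8 and 31.1. Neutrophil markers were dim in both profiles for 8 of 9 members, including Mpo (0.910 and 0.980), Elane (0.764 and 0.773) and Ltf (0.764 and 0.793). A dim probe can miss a change. The neutrophil list summed to 11.6 and 8.96 (median -0.01). S100a8, its 1 member that was not dim, was lower at 24 h (5.05 and 2.46). Hepatocyte markers summed to 15.2 and 38.1 (median -0.03), of which Ttr made up most at 24 h. Lower at 24 h were 8 of 10 neuron markers (median -0.13, summed level 504 and 466), 9 of 9 oligodendrocyte markers (median -0.39, 388 and 282) and 4 of 6 erythroid markers (median -0.22, 139 and 104). No marker was listed at 0. The part of these cells in the differences of the 9 genes was not tested, and in tissue RNA more cells of a type and more RNA per cell cannot be told apart.

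**Figure D5:**
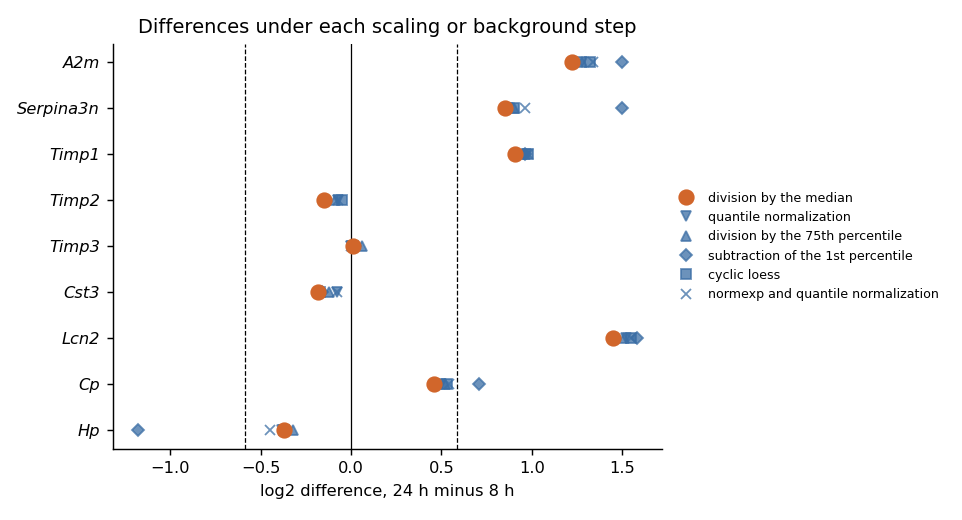
Log2 difference, 24 h minus 8 h, of each of the 9 genes with division by the median (orange circles) and under 5 other scaling or background steps (blue), with 1.5-fold at the dashed lines. Lcn2, A2m, Timp1 and Serpina3n stay above the upper line under each step, Cp crosses it and Hp crosses the lower line only after subtraction of the 1st percentile, and Timp3 stays within 0.06 of 0.

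Lcn2, A2m, Timp1 and Serpina3n were past 1.5-fold under each scaling tried. Over the 5 steps in the plot of scalings, the difference ran from 1.51 to 1.58 for Lcn2, from 1.28 to 1.5 for A2m, from 0.96 to 0.98 for Timp1 and from 0.87 to 1.5 for Serpina3n. Timp2 ran from -0.15 to -0.05 and Cst3 from -0.17 to -0.08. Timp3 ran from -0.00 to 0.06, so it has no direction. Cp ran from 0.50 to 0.71, with the upper end, past 1.5-fold, after subtraction of the 1st percentile. The dim Hp probe reached -1.18 under that step and stayed between -0.45 and -0.32 otherwise.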

How the data were processed

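The authors deposited linear intensities for 22523 probes with 1 column for each of 24 samples. Their background correction, scaling and normalization are not given in the sources used here. Non-normalized values in 24 columns named by running numbers match no sample by name and were not used. Groups came from sample titles. The 2 slides held 2 arrays of every group each. Array medians ranged from 65.3 to 90.1 at 8 h and from 76.8 to 115 at 24 h. How many arrays stand behind each profile is not known, so its precision is not known either.

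Each column was divided by its median, and columns of a time point were averaged into 1 profile. The planned limma comparison of groups could not be fitted, because the columns of a time point do not differ in profile. The 9 genes and the gene lists were chosen with earlier results of these data known. In a list, the probe with the highest mean stood for a gene. Named list genes were the 6 with the largest absolute difference among those at or above 1.5 times the median in both profiles, up to 3 at or above 3 times with a difference under 0.1, and 8 genes fixed by name, of which Lrp1 had no named probe. Examples outside that rule were chosen after their values were seen. Symbols came from the platform annotation (13793 probes with 1 symbol, 8730 with none, 0 with several), and all 9 gene identifiers were in the RefSeq gene table. Alternatives were quantile normalization, cyclic loess (limma 3.58.1), division by the 75th percentile, 1st percentile subtraction floored at 0.05 times the median, normexp (offset 50) with quantile normalization, filters on dim probes, a 2-fold size and each array left out. The profile step was run on simulated data without noise, where recovery of the set differences follows from the set-up. That run checks the code only and says nothing about the precision of the profiles. Python 3.11.15 and R 4.3.3 were used.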

Additional observations from a re-analysis of the deposited data

Results flagged for a closer look

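At 24 h the highest of the 4 treatment arrays stood apart in overall intensity: its gap to the next array was 0.857 of the group's range on the log2 scale. All 9 genes carry the same gap, since within a time only the array factor differs, as for Lcn2, with intensities of 1524, 1555, 1557 and 1773 in that group. About 1 in 20 groups is expected to stand out in this way by chance, and 6 groups were looked at.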

How the results depend on the processing

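No paired analysis was possible because the columns of a time point carry 1 profile, so no test was made. Leaving out an array cannot move these values, since the columns of a time point are 1 profile, so the unmoved counts of 4 and 0 genes and median of 0.46 say nothing about stability. With 2-fold in place of 1.5-fold, 2 of the 9 genes were higher. Subtraction of the 1st percentile gave 1 gene lower, Hp, and a median of 0.71, while 2043 probes were then at least 1.5-fold higher and 1735 lower in the whole table. Without the lower 75% of probes, which leaves out Hp, Cp, Serpina3n and Timp3, the median of the remaining 5 was 0.91. The count of probes in the whole table at least 1.5-fold lower, 112 with division by the median, ran from 78 to 97 under the other 4 scalings, and the count higher, 139, from 174 to 206. Over the 4 steps other than subtraction, further inhibitors past 1.5-fold upward numbered 2 in place of 1, and proteases 1 in place of 0 except after quantile normalization; subtraction gave 7 higher and 4 lower inhibitors, 3 and 2 plasma proteins, 1 and 4 signalling genes, and 4 and 6 proteases. Without the lower 75% of probes no plasma protein was 1.5-fold higher. Some list medians near 0 changed sign. Astrocyte markers (-0.02) had 0.02 after quantile normalization and after normexp and 0.03 after cyclic loess and with the 75th percentile, which gave 0.04 for neutrophil and 0.03 for hepatocyte markers. Without the lower 50% or 75% of probes hepatocyte markers, reduced to 2, had 0.83, and without the lower 75% receptor and iron genes had -0.05. The cause of the other shifts was not tested. Signal over background is not known, so dim probes (Hp, Timp3, and Serpina3n at 8 h) are the least certain.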
